A study of Mus musculus with 12 samples.

Results

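The genes of the mitochondrial ribosomal proteins were examined in 12 mouse heart RNA-seq libraries, 6 from HKII+/- hearts and 6 from HKII+/+ hearts. They were chosen by gene symbol, Mrpl or Mrps followed by a number, without symbols of pseudogenes and with a mean of at least 1 CPM (counts scaled to library size by TMM factors) over the 12 libraries. The rule found 77 genes among the 24061 listed symbols, and all 77 passed the level. The member nearest that level was Mrpl23, at a mean of 3.72 CPM, and no symbol of the pattern lay below it. The mice were males of strain C57BL/6J on chow, 2 to 4 months old. HKII+/- hearts carry 1 intact allele of Hk2, which encodes hexokinase II, the glucose-phosphorylating enzyme that binds the outer mitochondrial membrane, and HKII+/+ hearts carry both. How the allele was made, and which parts of the heart were taken, are not given in the labels. Per the labels, 1 library of each genotype is a potential outlier, HKII+/- replicate 11 and HKII+/+ replicate 13, and the other 10 libraries, 5 per genotype, are called unmarked here.

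The mitochondrial ribosome translates the messages of mitochondrial DNA, which encode core subunits of the respiratory chain and of ATP synthase. Its RNAs come from mitochondrial DNA, whereas its proteins are encoded by nuclear genes, made in the cytosol and imported. It is richer in protein than the bacterial ribosome, and holds many proteins with no bacterial counterpart beside those that have one. Cardiac muscle depends on oxidative phosphorylation and is rich in mitochondria. By known roles the 77 genes comprise 50 for proteins of the large subunit, 26 for proteins of the small subunit, and Mrps36. The large-subunit set includes Mrps30 and Mrps18a, whose proteins bear small-subunit names but sit in the large subunit. The product of Mrps36 is now known as an adaptor of the 2-oxoglutarate dehydrogenase complex. Transcripts of mitochondrial DNA itself were not analysed here.

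Counts totalled 17263209 to 51556592 per library, and the 77 genes held 67837 to 198526 of them, or 0.339% to 0.396%. The mean of Hk2 was 338.3 ± 118 CPM (SD, n = 6) in HKII+/- hearts, against 532.9 ± 64.4 CPM (SD, n = 6) in HKII+/+ hearts. HKII+/- replicate 11 had 568.2 CPM of Hk2. This lay above the 471 to 542.5 CPM of the unmarked HKII+/+ libraries and below the 652.6 CPM of marked HKII+/+ replicate 13. The 5 unmarked HKII+/- libraries had 255.7 to 354 CPM, below every HKII+/+ library. Over all 12 libraries the log2 fold change of Hk2 was -0.66 (SE 0.195, edgeR quasi-likelihood test), and its adjusted p was not below 0.05. Without the 2 marked libraries the log2 fold change of Hk2 was -0.80 (SE 0.088, edgeR quasi-likelihood test, adjusted p = 0.0165). That call was lost, at adjusted p between 0.0522 and 0.0951, in the fits without 1 of 7 libraries, namely replicates 12, 16, 19 and 20 (HKII+/-) and 15, 17 and 18 (HKII+/+), and the direction was kept. At this scaling, with TMM factors of 0.787 and 0.76 in marked replicates 11 and 13, HKII+/- replicate 11 goes against its label at Hk2. Without TMM scaling, 13360 of its 29924460 deposited counts were Hk2. That share was smaller than in every HKII+/+ library and larger than in every unmarked HKII+/- library. In both marked libraries markers of 1 cell type went apart. Of 8 ventricular markers, HKII+/- replicate 11 had 4 above and 4 below the range of the unmarked libraries, and HKII+/+ replicate 13 had 4 above and 2 below. The summed 181000 and 204000 CPM, against 69100 to 94600 CPM in the unmarked libraries, were mostly Myh6 (125900 and 130900 CPM), while Pln had 148.9 and 540.2 CPM, against at least 4627 CPM in the unmarked libraries. Of 6 fibroblast markers, the 3 collagen genes lay above the unmarked range in both (sums of the list 12600 and 3930 CPM, against at most 1620 CPM), and Dcn, Lum and Pdgfra below it in both. Airway epithelium markers lay above the range for 5 of 6 genes in HKII+/- replicate 11, where they summed to 280 CPM, against at most 1.71 CPM in the unmarked libraries. Numbers of genes higher, lower and called between genotypes are given below with and without these 2 libraries, and values of some single genes for 1 fit only. In bulk tissue, fewer cells of a type and less RNA per cell cannot be told apart.

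The genes were all present in heart at moderate and unequal levels. Per length, as CPM per kilobase of merged exons over the 10 unmarked libraries, the median was 26.7, against 5.4 for all tested genes, 106 for cytosolic ribosomal proteins and 224 for subunits of respiratory complex I. The median was 28.9 for the large subunit and 19.3 for the small subunit. Since long annotated exons divide the level, a gene with a rarely used long exon reads low on this scale.

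Mrpl42, a large-subunit protein with no bacterial counterpart, stood highest at 251 ± 15.7 CPM per kilobase (SD, n = 10 unmarked libraries). Mrpl12, which forms the flexible stalk that recruits translation factors, followed at 109 ± 6.54, and Mrpl30, a large-subunit protein with a bacterial counterpart, at 106 ± 7.1. The small-subunit proteins Mrps23 (102 ± 7.37) and Mrps21 (97.4 ± 8.34) came next. From Mrpl12 to Mrps21 neighbouring levels lay within 1 SD of each other, whereas Mrpl42 stood above all of them by far more than its spread.

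At the low end stood Mrpl23, at 3.7 ± 0.441 CPM per kilobase, then Mrpl47 (4.77 ± 0.341), Mrps25 (4.87 ± 0.244), Mrpl17 (5.05 ± 0.232) and Mrps17 (5.32 ± 0.34). Mrpl23, Mrpl47 and Mrpl17 lie around the exit of the polypeptide tunnel, where nascent chains leave the ribosome. Mrpl17 and Mrps25 have long annotated exons, of 7605 and 6073 bases in all, while Mrpl23 has 966 bases. The neighbours from Mrpl47 to Mrps17 lay within 1 SD of each other, taking the larger SD of a pair. Divided by the length of the principal transcript instead, a choice made after the data were seen, Mrpl23 had 5.17 and stood behind Mrpl47 (4.77) and Mrps25 (4.87), and Mrps17 (6.31) gave way to Mrpl19 (6.12) among the lowest 5, while at the top Mrps23 and Mrpl12 both had 109. Of the exon bases of Mrps25, 58.2% overlap those of Nr2c2 on the opposite strand, and 13.4% of those of Mrpl47 overlap Actl6a. Without a stated strand setting, reads of such pairs cannot be told apart.

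**Figure D1:**
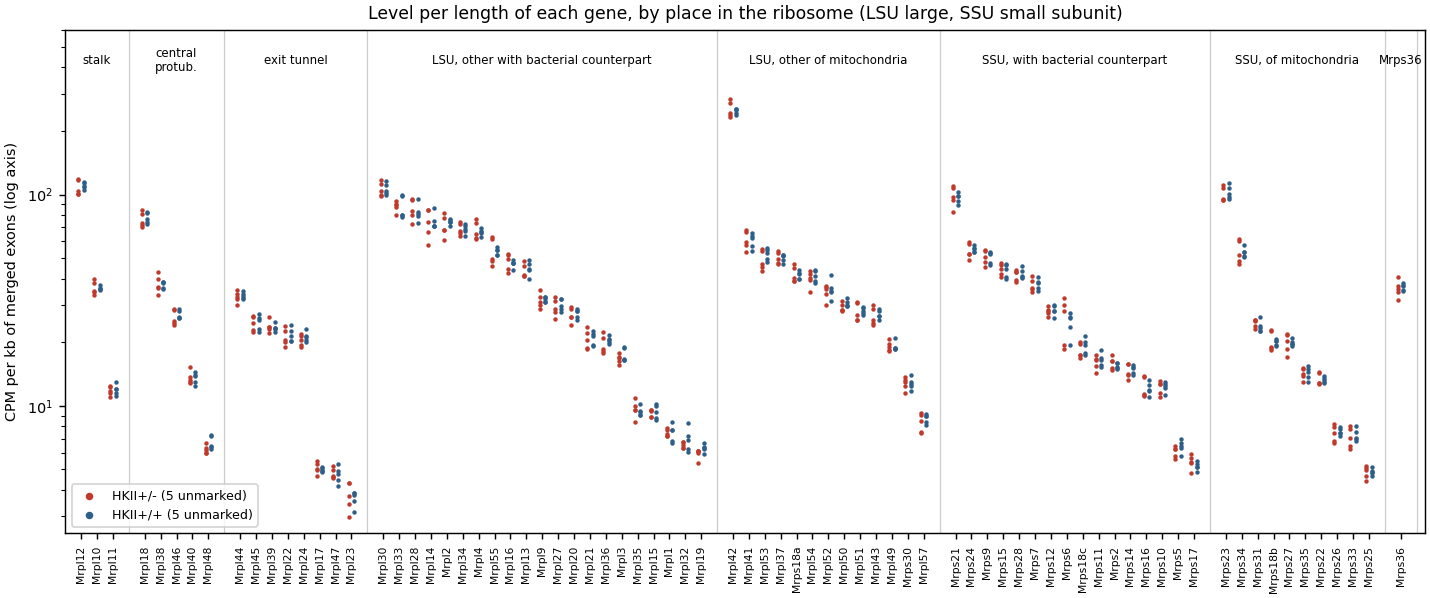
Each gene's level in CPM per kilobase of merged exons (log axis) in the 5 unmarked HKII+/- libraries (red, left of each position) and the 5 unmarked HKII+/+ libraries (blue, right), grouped by place in the ribosome and ordered by mean. Mrpl42 stands highest at 251 and Mrpl23 lowest at 3.7 CPM per kilobase, and the points of the genotypes overlap for every gene.

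Within a structural unit the levels were not equal. The 3 stalk genes spanned 109 CPM per kilobase for Mrpl12, 36.2 for Mrpl10, which anchors the stalk, and 11.9 for Mrpl11, which lies at its base. In the central protuberance, which faces the incoming tRNAs, Mrpl18 had 76.9, Mrpl38 37.6, Mrpl46 26.7, Mrpl40 13.6 and Mrpl48 6.48. Around the exit tunnel, Mrpl44, an RNase III-like protein, had 33.1 and Mrpl45, which ties the ribosome to the inner membrane, 24.7 CPM per kilobase. Mrps12, whose protein lies at the decoding centre, had 28.3, and Mrps28 42. The paralogs Mrps18a, Mrps18b and Mrps18c had 41.8, 20.2 and 18.7 CPM per kilobase. Mrps30 had 12.8 and Mrps36 36.2.

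Among the unmarked libraries the genes varied little. The SD of log2 CPM over the 10 libraries had a median of 0.097 (quartiles 0.087 and 0.113), against 0.142 for all tested genes (0.096 and 0.244), 0.091 for cytosolic ribosomal proteins and 0.123 for complex I subunits. Spread falls with level, and at equal level the gap was small. Among genes between 26.4 and 55.3 CPM, the quartiles of the ribosomal proteins, the median SD was 0.096 for 39 mitochondrial ribosomal proteins and 0.101 for 2654 tested genes.

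Mrps6, which has a bacterial counterpart in the small subunit, varied most, with an SD of 0.283. It had 27.4, 23.8, 16.4, 25.5 and 15.7 CPM in the unmarked HKII+/- libraries, against 23.3, 22.1, 19.9, 22.3 and 16.4 CPM in the unmarked HKII+/+ libraries. Both genotypes thus held high and low libraries. Slc5a3, the inositol transporter gene that shares 159 exon bases with Mrps6 on the same strand (18.8% of the exon bases of Mrps6), had 23.1, 8.48, 3.54, 9.26 and 5.18 CPM in the same HKII+/- libraries and 8.58, 6.43, 6.11, 5.96 and 7.15 CPM in the HKII+/+ libraries. The highest library was HKII+/- replicate 12 for both genes. In HKII+/+ replicate 21, however, Mrps6 was the lowest of the unmarked libraries of its genotype, while Slc5a3 was the second highest. Atrial cardiomyocyte markers summed to 5760, 5560, 354, 6940 and 470 CPM in the same HKII+/- libraries and 5510, 5980, 3220, 4190 and 2410 CPM in the HKII+/+ libraries. The 3 unmarked libraries with the lowest sums, HKII+/- replicates 19 and 22 and HKII+/+ replicate 21, were also the 3 lowest unmarked ones of Mrps6. In the marked libraries Mrps6 was lower still, with 13.5 CPM in HKII+/- replicate 11 and 14.8 CPM in HKII+/+ replicate 13. Atrial markers summed to 16300 and 5500 CPM there. The part of shared reads or of atrial tissue in the spread of Mrps6 was not tested.

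Mrpl14, at the interface of the subunits (SD 0.181), and Mrpl23 (0.172) followed. Mrpl14 ranged between 37.21 and 54.8 CPM in unmarked HKII+/- libraries and between 45.69 and 56.05 CPM in unmarked HKII+/+ libraries, and the ranges overlapped. The steadiest genes were Mrpl17, with an SD of 0.066, and Mrpl44 and Mrpl50, with 0.068 each. Mrpl17 stayed between 35.53 and 41.78 CPM in the unmarked HKII+/- libraries and between 37.07 and 39.26 CPM in the unmarked HKII+/+ libraries.

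**Figure D2:**
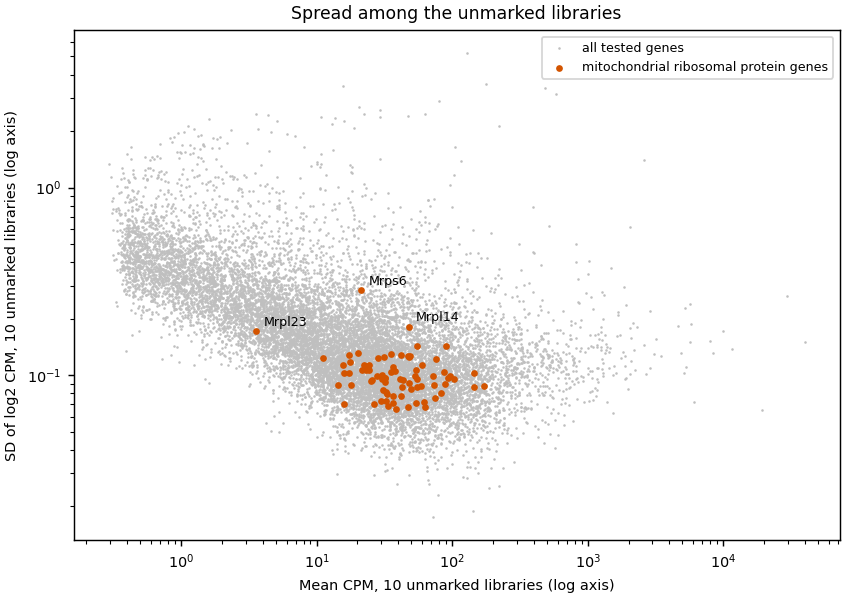
SD of log2 CPM against mean CPM (both log axes) over the 10 unmarked libraries, for all tested genes (grey) and the 77 mitochondrial ribosomal protein genes (orange). The 77 genes lie in the body of the grey cloud, with Mrps6 (SD 0.283), Mrpl14 and Mrpl23 above the rest of them.

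The summed level varied among the unmarked libraries of each genotype. Over the 77 genes, the unmarked HKII+/- libraries held 3357.3, 3394.1, 3819.1, 3426.4 and 3881.3 CPM (replicates 12, 16, 19, 20 and 22), against 3495, 3428.8, 3635.8, 3742.3 and 3703.4 CPM in the unmarked HKII+/+ libraries (replicates 14, 15, 17, 18 and 21). The lowest and the highest sums were both HKII+/- libraries. Replicate 22 held the highest value of the 10 libraries for 31 genes and replicate 12 the lowest for 29. Markers of atrial cardiomyocytes (6 genes) summed to 354 CPM in replicate 19 and 470 CPM in replicate 22, the 2 HKII+/- libraries with high sums, against up to 6940 CPM in the other unmarked HKII+/- libraries and 2410 to 5980 CPM in the unmarked HKII+/+ libraries. The part of atrial tissue in these sums was not tested beyond the fit with an atrial covariate below.

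The 77 genes are scattered over the genome. In GRCm38 they lie on 17 chromosomes, with the most, 10 genes, on chromosome 11 and 8 on chromosome 17, and none on 12, 18 or X. Many have a neighbour on the other strand that starts close to their own start. For 32 of 77 (41.6%) another protein-coding gene starts head to head within 1000 bases, against 1961 of 13467 tested protein-coding genes (14.6%). Mrpl46 and Mrps11, of the large and the small subunit, form such a pair with each other. Mrps12 pairs with Sars2, the mitochondrial seryl-tRNA synthetase, Mrpl36 with the complex I gene Ndufs6, Mrpl49 with Fau, which encodes a cytosolic ribosomal protein fused to a ubiquitin-like one, and Mrpl43 with Peo1, the mitochondrial DNA helicase.

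The RefSeq windows of GRCm38.p6 that span 250 bases before to 50 after a gene's start were present for 68 of the 77 genes and were searched for short motifs on both strands. The ETS motif CCGGAAG, bound by GABP among others, was in a window of 36.8% of the 68 genes, against 9.92% of all 27034 genes with a window and 18.4% of the 10570 tested ones. The core of the NRF1 motif, TGCGCA, was in 29.4%, against 8.79% and 15.1%, and the YY1 motif AAGATGGC in 17.6%, against 3.19% and 4.9%. The SP1 motif GGGCGG was in 50%, against 38.2% and 67.4%, CCAAT in 39.7%, against 41% and 42.2%, and TATAAA in 7.35%, against 15.7% and 8.92%. The full NRF1 motif, a longer set of letters, was in 4.41% of the 68 genes, against 1.07% of all genes and 2.22% of the tested ones. Mrpl39 holds the full motif but not the core, so the share of 29.4% is that of the core alone. GABP, NRF1 and YY1 are known as regulators of nuclear genes for mitochondrial proteins. These matches are a description of letters and show no binding.

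Upstream regions of 4 genes show such letters and their absence, each as the 150 bases before the start from RefSeq, 5′ to 3′ on the strand of the gene and free of annotated exons. Capitals mark the ETS motif or the NRF1 core on either strand. Mrpl45 (chr11:97315566-97315715, plus strand) holds the NRF1 core at 2 places, and Mrpl52 (chr14:54426759-54426908, plus strand) holds the ETS motif, on the minus strand. Mrps12 (chr7:28741822-28741971, minus strand) fills most of the 172 bases between its start and that of Sars2. Mrpl42 (chr10:95501950-95502099, minus strand), the gene with the highest level per length, holds neither set of letters here. The longer windows searched above do hold the ETS and YY1 motifs for Mrps12 and the YY1 motif for Mrpl42, so both count among the genes with those motifs.
Mrpl45: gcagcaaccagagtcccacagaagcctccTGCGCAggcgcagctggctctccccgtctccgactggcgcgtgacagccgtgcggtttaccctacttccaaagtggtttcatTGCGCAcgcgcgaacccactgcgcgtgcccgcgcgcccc
Mrpl52: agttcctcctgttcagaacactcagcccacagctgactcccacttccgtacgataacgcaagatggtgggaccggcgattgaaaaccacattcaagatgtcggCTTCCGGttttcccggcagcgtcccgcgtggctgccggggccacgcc
Mrps12: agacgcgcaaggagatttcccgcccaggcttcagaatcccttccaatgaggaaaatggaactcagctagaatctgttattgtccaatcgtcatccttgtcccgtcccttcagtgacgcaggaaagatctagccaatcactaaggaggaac
Mrpl42: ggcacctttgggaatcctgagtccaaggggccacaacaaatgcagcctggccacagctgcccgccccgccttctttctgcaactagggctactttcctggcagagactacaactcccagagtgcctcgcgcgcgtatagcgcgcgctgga

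The study compared HKII+/- with HKII+/+ hearts, and for the mitochondrial ribosomal proteins no difference passed the test. Over all 12 libraries 0 of the 77 genes were called (edgeR quasi-likelihood test, Benjamini-Hochberg adjusted p below 0.05), against a background of 0 of 14107 tested genes (0%). At an unadjusted p below 0.05 there were also 0 of 77, against 0.262% of all tested genes. DESeq2 likewise gave 0 of 77 at either threshold, against 0 of 14107 tested genes called and 64 at an unadjusted p below 0.05. No gene separated the genotypes without overlap, against 0.0213% of tested genes. The estimates leaned low, with 69 genes lower and 8 higher in HKII+/- hearts, against 50.5% of all tested genes lower and 49.5% higher, and a median log2 fold change of -0.08, against -0.001 for all tested genes. The median SE of a single gene was 0.191. The lean was smaller when either marked library was left out. Without HKII+/+ replicate 13, 44 genes were lower and 33 higher, with a median of -0.02. Without HKII+/- replicate 11 there were 50 lower and 27 higher, with a median of -0.05 (-0.045). With limma voom and sample quality weights, 1 gene, Mrpl19, reached an unadjusted p below 0.05, against 4.76% of all tested genes, and 0 were called.

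Over the 10 unmarked libraries the estimates lay close to 0. Again 0 of 77 genes were called, against 1 of 14139 tested genes (0.00707%), which was Hk2, and 0 of 77 reached an unadjusted p below 0.05, against 2.8% of all tested genes. DESeq2 gave 0 of 77 at either threshold here too, against 3 of 14139 tested genes called and 351 at an unadjusted p below 0.05. No gene separated the genotypes without overlap, against 0.474% of tested genes. There were 45 genes lower and 32 higher in HKII+/- hearts, with 52.7% of all tested genes lower and 47.3% higher, and the median log2 fold change was -0.01, against -0.005 for all tested genes. With upper-quartile factors the split was 53 lower and 24 higher, and leaving out single libraries moved the number of lower genes between 32 (without HKII+/- replicate 12) and 65 (without HKII+/- replicate 19 or 22), so the direction of the list depended on single libraries. The median SE was 0.064. The 95% interval of the difference lay within 1.5-fold in either direction for 77 of 77 genes, compared with 53 of 77 in the 12-library fit, and its widest reach was that of Mrps6, between -0.28 and 0.41 on the log2 scale.

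**Figure D3:**
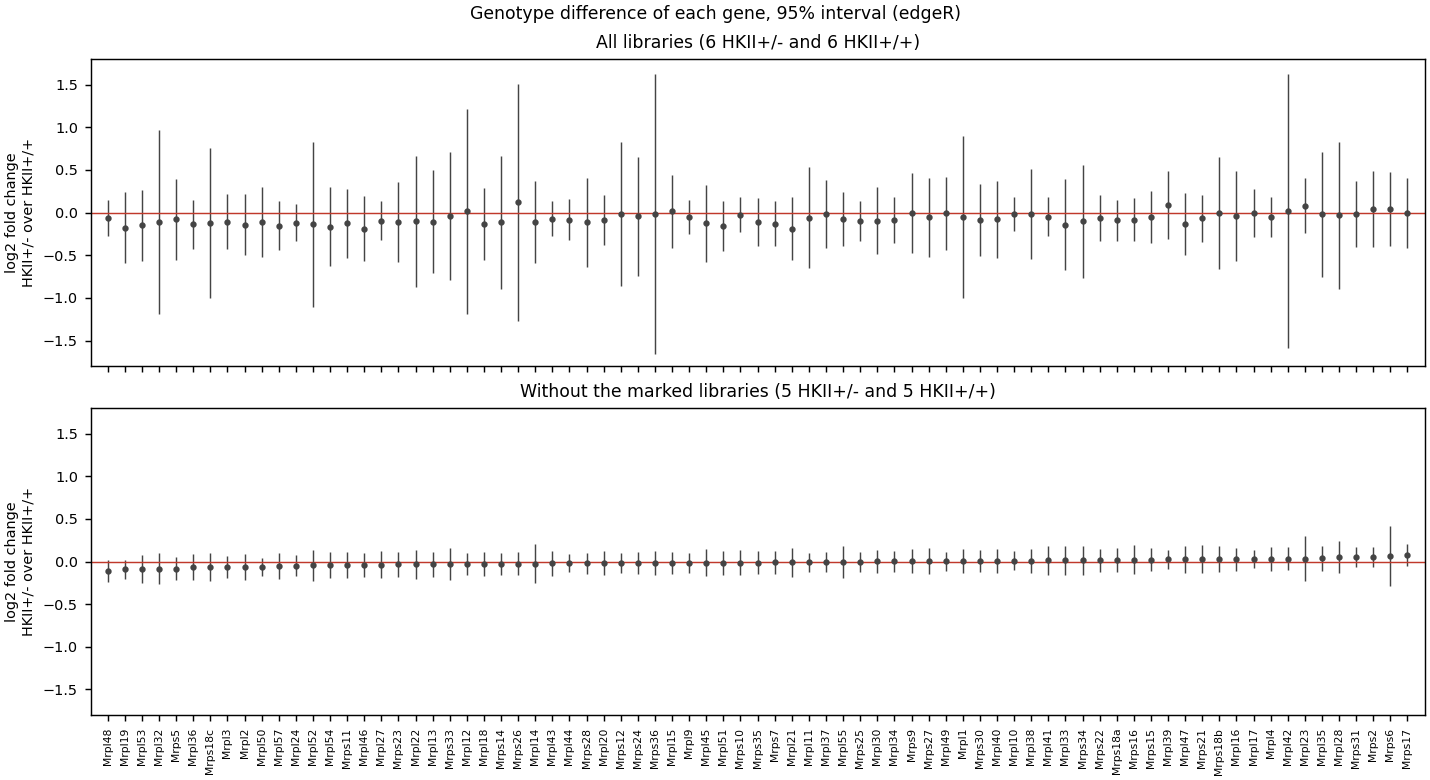
log2 fold change of HKII+/- over HKII+/+ for each of the 77 genes, with its 95% interval (edgeR), over all 12 libraries (top) and the 10 unmarked libraries (bottom), both ordered by the lower panel. Every interval holds 0, and without the marked libraries the estimates run between -0.11 for Mrpl48 and 0.08 for Mrps17.

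The gene with the smallest p among the unmarked libraries was Mrpl48, of the central protuberance. It had 28.16, 28.23, 31.49, 28.99 and 29.58 CPM in HKII+/- hearts, against 30.14, 30.22, 29.42, 33.93 and 34.29 CPM in HKII+/+ hearts. The highest 2 libraries were HKII+/+ and the lowest 3 HKII+/-, with overlap between. Its log2 fold change was -0.11 (SE 0.059, unadjusted p = 0.0968, edgeR adjusted p = 1), and an exact two-sided permutation test over the 252 splits gave p = 0.103, where the smallest possible is 0.00794. Of the exon bases of Mrpl48, 8.58% overlap Rab6a on the other strand, which had a mean of 114 CPM in the unmarked libraries.

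Mrpl19, a large-subunit protein with a bacterial counterpart, had 30.5, 29.85, 30.47, 26.82 and 30.52 CPM in unmarked HKII+/- hearts, against 31.18, 32.07, 31.71, 33.38 and 29.69 CPM in unmarked HKII+/+ hearts. Only the lowest HKII+/+ library fell within the HKII+/- range, and the log2 fold change was -0.09 (SE 0.053, unadjusted p = 0.111, edgeR adjusted p = 1, exact permutation p = 0.0635). Of its exon bases, 39.2% overlap Gcfc2 on the other strand. Mrps5, at the messenger entry side of the small subunit, Mrpl50 and Mrpl53 had log2 fold changes of -0.08, -0.06 and -0.09 (SE 0.062, 0.048 and 0.076), with exact permutation p of 0.167, 0.175 and 0.254.

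On the higher side stood the small-subunit proteins Mrps17, Mrps2 and Mrps31. Mrps17 had 32.3, 29.02, 34.11, 32.72 and 35.48 CPM in unmarked HKII+/- hearts, against 29.19, 31.94, 30.73, 32.82 and 30.83 CPM in unmarked HKII+/+ hearts. Its lowest library was HKII+/- although its 2 highest were too, and the log2 fold change was 0.08 (SE 0.059, exact permutation p = 0.238). Mrps2 and Mrps31 had log2 fold changes of 0.06 and 0.05 (SE 0.052 and 0.055), and the large-subunit genes Mrpl17 and Mrpl28 had 0.03 and 0.05 (SE 0.049 and 0.085). None of these had an edgeR adjusted p below 1.

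In the 12-library fit the smallest p on the lower side belonged to Mrpl24, Mrpl57, Mrpl51, Mrpl21 and Mrpl46, all of the large subunit. Their log2 fold changes were -0.12, -0.16 (-0.156), -0.16 (-0.155), -0.19 (-0.187) and -0.19 (-0.188), with unadjusted p of 0.254 to 0.301. In all 5 the highest library was HKII+/+ replicate 13, and without it Mrpl21 and Mrpl46 came to 0.02 each. Mrpl51, for instance, had 152.7 CPM in that library, against 92.65 to 100.5 CPM in the unmarked HKII+/+ libraries. Of the exon bases of Mrpl24, 38.2% overlap Rrnad1 on the other strand. On the higher side Mrpl23, Mrpl39, Mrps6, Mrps26 and Mrps2 had 0.08, 0.09, 0.04, 0.12 and 0.04, each below its SE. Mrpl39, near the exit tunnel, turned to -0.09 without HKII+/- replicate 11, Mrps26, a small-subunit protein of mitochondria, to -0.81 without that library and to 0.92 without HKII+/+ replicate 13.

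The mean log2 CPM of the 6 atrial markers was also added as a covariate to the fit of the 10 unmarked libraries. In that fit 73 genes were lower and 4 higher in HKII+/- hearts, with a median log2 fold change of -0.06. At an unadjusted p below 0.05 there were then 6 of 77 genes, all lower, against 4.85% of all tested genes, and 51.6% of all tested genes were lower. The 6 were Mrpl2 (-0.14, SE 0.046), Mrpl53 (-0.16, SE 0.054), Mrpl50 (-0.10, SE 0.042), Mrpl48 (-0.13, SE 0.060), Mrpl36 (-0.13, SE 0.056) and Mrpl55 (-0.10, SE 0.047). All had an adjusted p of 0.905 in edgeR, so none was called. Atrial marker sums were lowest in 2 HKII+/- libraries, and so the covariate, built from the same markers, and the genotype are partly shared.

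The marked libraries differed from the unmarked ones in the ribosomal protein genes, as they did in genes at large. Each was compared with the median of the 5 unmarked libraries of its own genotype on the log2 CPM scale, so that the 2 comparisons share no library. HKII+/- replicate 11 lay above the range of the 10 unmarked libraries for 31 of the 77 genes (40.3%, against 39.6% of all tested genes) and below it for 36 (46.8%, against 45.1%). HKII+/+ replicate 13 lay above for 42 (54.5%, against 36.7%) and below for 26 (33.8%, against 42.6%). More than 2-fold from the median, replicate 11 had 8 genes higher (10.4%, against 21.3% of all tested genes) and 23 lower (29.9%, against 28.9%), and replicate 13 had 11 higher (14.3%, against 14%) and 10 lower (13%, against 23.6%). The median absolute log2 difference was 0.81 and 0.60 for the 77 genes in replicates 11 and 13, 1.01 and 0.76 for all tested genes, 0.98 and 0.81 for cytosolic ribosomal proteins, and 1.24 and 0.92 for complex I subunits. By this median the differences were smaller in the 77 genes than in each of these sets. With 1 library of each kind these are descriptions, with no test.

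**Figure D4:**
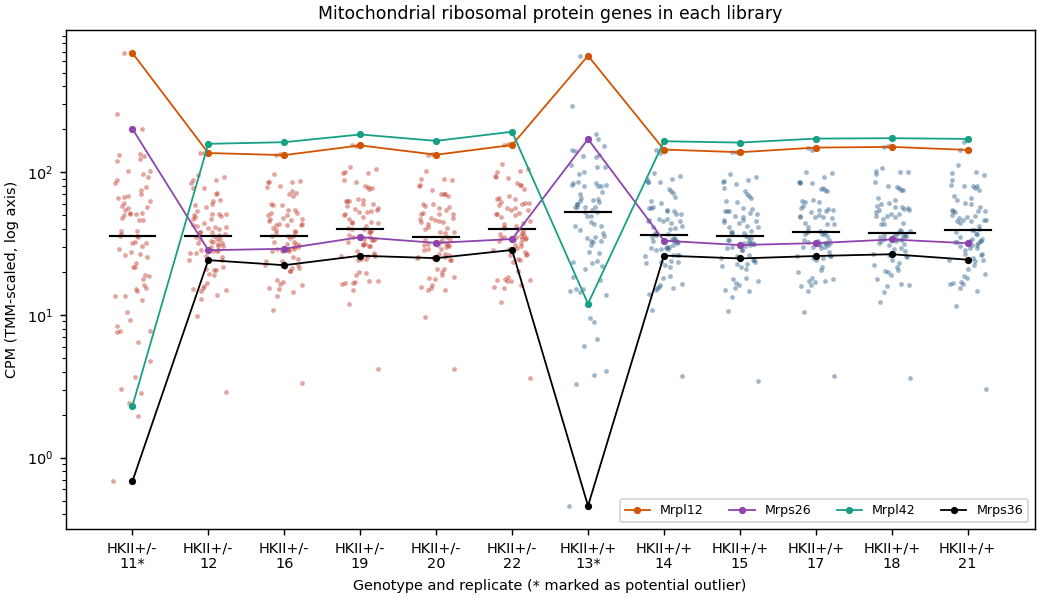
CPM of the 77 genes (points, log axis) in each library, with the median as a black bar and 4 genes joined by lines. In HKII+/- replicate 11 and HKII+/+ replicate 13 Mrpl12 and Mrps26 lie far above, and Mrpl42 and Mrps36 far below, their values in the unmarked libraries, where the lines run almost flat.

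Mrpl42 and Mrps36 were far lower in both. Mrpl42 (chr10:95480805-95501940, minus strand) had 2.297 CPM in HKII+/- replicate 11, against 158.4, 162.6, 184.2, 166.1 and 192.5 CPM in the unmarked HKII+/- libraries, and 12 CPM in HKII+/+ replicate 13, against 165.1, 161.6, 172.3, 173.4 and 171.5 CPM in the unmarked HKII+/+ libraries. The gene with the highest level per length in the unmarked libraries was thus far below its usual level in both, with log2 differences of -6.13 and -3.83. Mrps36 (chr13:100735955-100744659, minus strand) had 0.68 CPM in replicate 11 and 0.459 CPM in replicate 13, from 16 and 7 counts, against 22.33 to 28.54 CPM in unmarked HKII+/- libraries and 24.41 to 26.65 CPM in unmarked HKII+/+ libraries. Its log2 differences were -5.06 and -5.62.

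Further large-subunit genes low in both were Mrpl32, with log2 differences of -3.28 in replicate 11 and -2.43 in replicate 13, and Mrpl1 (-3.07 and -1.78). Among small-subunit genes Mrps18c (-2.73 and -1.56) and Mrps14 (-2.58 and -1.06) were low. Of the Mrps18 paralogs, Mrps18b was also low (-1.66 and -1.28), while Mrps18a differed less (-0.11 and 0.40).

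In the other direction, Mrpl12 (chr11:120484613-120489065, plus strand) had 687.2 CPM in HKII+/- replicate 11, against 136.5, 132, 154.4, 132.8 and 155.4 CPM in the unmarked HKII+/- libraries, and 655.9 CPM in HKII+/+ replicate 13, against 144.4, 138.3, 149.1, 150.7 and 143.5 CPM in the unmarked HKII+/+ libraries. The log2 differences were 2.33 and 2.18. Mrpl12 alone made up 15.9% of the summed CPM of the 77 genes in replicate 11 and 12.6% in replicate 13, against 3.88% to 4.13% in the unmarked libraries. The other stalk genes did not move alike, with 1.06 and 1.2 for Mrpl11 and -0.20 and -0.09 for Mrpl10.

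Mrps26 (chr2:130563742-130568695, plus strand) had 202.1 CPM in replicate 11 and 171 CPM in replicate 13, against 28.43 to 35.12 CPM in unmarked HKII+/- libraries and 30.91 to 33.82 CPM in unmarked HKII+/+ libraries. Its log2 differences of 2.66 and 2.42 were the largest upward ones in both libraries. Mrpl52 (1.64 and 1.94), Mrps12 (1.59 and 1.61) and Mrpl28 (1.52 and 1.75) were also high. In the 12-library fit, with 1 marked library in each genotype, Mrpl42, Mrps36 and Mrpl12 had log2 fold changes of 0.02, -0.02 and 0.02 with SE of 0.741, 0.756 and 0.553. Without the marked libraries the same genes had 0.03 (0.035), -0.02 and -0.03 with SE of 0.060, 0.064 and 0.059.

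Across the 77 genes the differences of the 2 marked libraries were closely related (Pearson's r = 0.959), against r = 0.839 across 14005 tested genes. Both are descriptions across genes. Transcript GC content was related to the differences in part, with r of 0.392 for replicate 11 and 0.386 for replicate 13 across the 77 genes. Across the 14005 tested genes r was 0.633 and 0.643. In the 26 genes of lowest GC content (39.6% to 47.4%) the median log2 difference was -0.97 in replicate 11 and -0.16 in replicate 13, and in the 26 of highest GC content (52.6% to 60.6%) it was 0.31 and 0.67. Mrpl42 (46.7%) and Mrps36 (47.2%) were among the 26 of lowest GC content, as were Mrps14 (39.6%, the lowest of all 77), Mrpl1 (41.6%) and Mrpl32 (42.2%). Of the 2 highest genes, Mrpl12 (56.1%) was among the 26 of highest GC content and Mrps26 (49.2%) lay between. The part of GC content, RNA quality or other tissue in these differences was not tested.

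**Figure D5:**
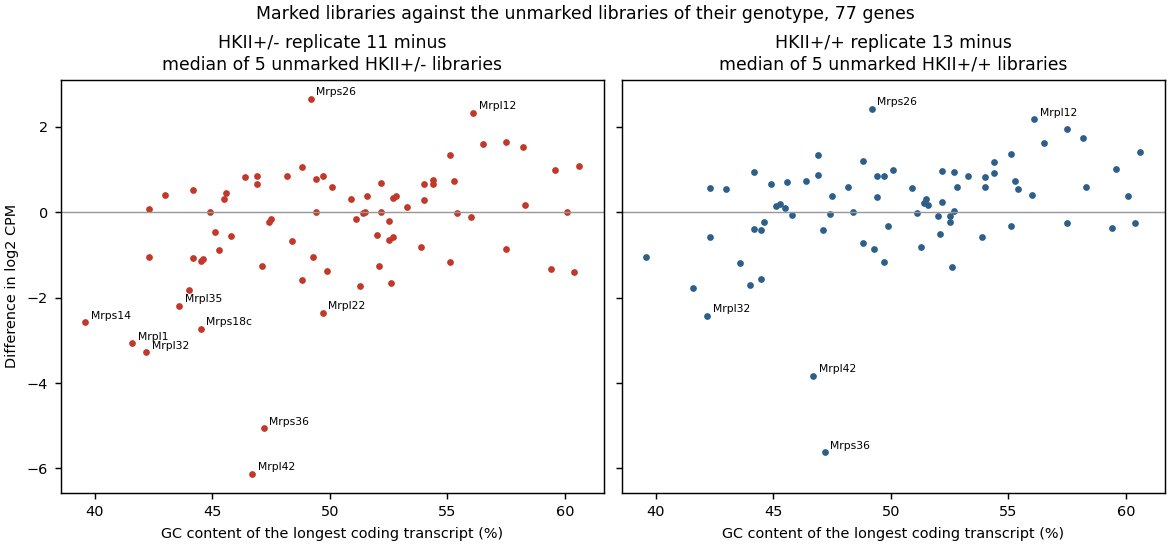
Difference in log2 CPM between each marked library and the median of the 5 unmarked libraries of its genotype, against the GC content of the longest coding transcript, HKII+/- replicate 11 on the left and HKII+/+ replicate 13 on the right. Each point is 1 of 77 genes and those beyond 2 in either direction are named; r was 0.392 and 0.386.

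The summed level of the 77 genes in the marked libraries depended on the scaling. It was 4310.6 CPM in HKII+/- replicate 11 and 5207.2 CPM in HKII+/+ replicate 13, above the 3357.3 to 3881.3 CPM of the unmarked libraries. As a share of the deposited counts, before TMM scaling, it was 0.339% in replicate 11, the lowest, and 0.396% in replicate 13, the highest, with 0.364% to 0.393% in the unmarked libraries. The TMM factors of the 2 marked libraries were 0.787 and 0.76, against 0.992 to 1.09 in the others.

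The other genes of mitochondrial translation were taken from lists chosen from known roles, and 0 were called in either fit. Ribosomal proteins outside the symbol pattern numbered 6, with 6 lower in the 12-library fit and 2 higher and 4 lower in the 10-library fit. Among them Dap3, a GTP-binding protein of the small subunit, had 104 ± 3.36 CPM in unmarked HKII+/- hearts and 102 ± 5.85 CPM in unmarked HKII+/+ hearts (SD, n = 5 each). Aurkaip1 and Ict1, a ribosome-rescue factor built into the large subunit, had log2 fold changes of -0.04 and -0.01 without the marked libraries (SE 0.050 and 0.080).

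Of 25 genes for ribosome assembly and rRNA modification, 9 were higher and 16 lower over 12 libraries, and 8 and 17 over 10. At an unadjusted p below 0.05 there were 2 of 25, both lower in the 10-library fit, in which 2.8% of all tested genes passed. They were the assembly GTPase Gtpbp10 (-0.14, SE 0.062) and the pseudouridine synthase family member Trub2 (-0.13, SE 0.058), each with an edgeR adjusted p of 1. Over 12 libraries Gtpbp10 had -0.17 (SE 0.508), and Trub2 turned to 0.19 (SE 0.501). Mettl17 and Eral1, both assembly factors of the small subunit, had -0.10 and -0.02 over 10 libraries, and -0.21 and -0.13 over 12. Of 15 initiation, elongation, release and recycling factors, 3 were higher and 12 lower over 12 libraries, and 6 and 9 over 10, with 0 at an unadjusted p below 0.05. Mtrf1l, a release factor, had 14.1 ± 0.952 CPM in unmarked HKII+/- hearts and 12.7 ± 0.997 CPM in unmarked HKII+/+ hearts (log2 fold change 0.16, SE 0.073, edgeR adjusted p = 1), while Taco1, a translational activator of cytochrome c oxidase subunit I, had 53.2 ± 3.29 CPM in the HKII+/- libraries, against 56.8 ± 1.92 CPM in the HKII+/+ libraries (-0.09, SE 0.050). The elongation factor Tufm had 0.02 (SE 0.078).

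Of 19 aminoacyl-tRNA synthetases of mitochondria, 6 were higher and 13 lower over 12 libraries, and 8 and 11 over 10. Of 3 subunits of the glutamyl-tRNA amidotransferase (Qrsl1, Pet112 and Gatc), 1 was higher and 2 lower in either fit. Pars2, for prolyl-tRNA, was the 1 of these genes at an unadjusted p below 0.05 in the 10-library fit, in which 2.8% of all tested genes passed (-0.19, SE 0.083, edgeR adjusted p = 1), and Fars2 and Gars had -0.08 each. Of 12 genes for mitochondrial DNA transcription and copying, 8 were higher and 4 lower over 12 libraries, and 4 and 8 over 10. The polymerase Polrmt, to which Mrpl12 is known to bind, had 46.8 ± 5.74 CPM in unmarked HKII+/- hearts and 44.6 ± 3.69 CPM in unmarked HKII+/+ hearts, and Tfam, which packages mitochondrial DNA, 48.2 ± 2.2 CPM in the HKII+/- libraries, against 49.8 ± 2.59 CPM in the HKII+/+ libraries. Mgme1, a mitochondrial exonuclease, and Mterf1a had 0.11 and -0.29 over 10 libraries (SE 0.083 and 0.226). The mean of Mterf1a was only 0.76 CPM in the unmarked libraries, below the 1 CPM asked of the ribosomal protein genes.

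Of 11 transcription factors and coactivators known for nuclear genes of mitochondria, 6 were higher and 5 lower over 12 libraries, and 4 and 7 over 10. Pprc1, a coactivator of the PGC-1 family and 1 of 11 at an unadjusted p below 0.05 without the marked libraries, where 2.8% of all tested genes passed, had 31.4 ± 3.37 CPM in unmarked HKII+/- hearts and 26.2 ± 2.13 CPM in unmarked HKII+/+ hearts (SD, n = 5 each). Its log2 fold change of 0.27 (SE 0.082, unadjusted p = 0.00699) had an edgeR adjusted p of 1. Factors whose motifs were searched above stood close to 0 without the marked libraries, with 0.06 for Nrf1, -0.02 for Gabpa and 0.04 for Yy1 (SE 0.070, 0.045 and 0.057). The cytosolic ribosomal proteins, of which 79 were tested, had medians of -0.05 over 12 libraries and 0.01 over 10, and 36 complex I subunits had -0.09 and 0.00 (0.004).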

How the data were processed

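Per the labels' protocols, poly(A) RNA from heart was sequenced as single-end reads of 100 nt. Per the submitters' processing notes, STAR 2.4.0 and featureCounts 1.4.4 were used with mm10/GRCm38. The authors deposited whole-number counts per gene symbol, 1 table per library, with no normalization. The sources used here give neither the strand setting nor the annotation release. Libraries are taken as separate animals from their separate titles; were some technical, p-values would measure only that spread. The lowest chi-square per degree of freedom between libraries of 1 genotype was 7.03, so none duplicated another of its genotype. Pairs across genotypes were not compared.

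Genotypes came from the labels. edgeR 4.0.16 (glmQLFit, glmQLFTest, TMM, filterByExpr with a minimum count of 10, Benjamini-Hochberg at 0.05) was fitted over all genes in R 4.3.3, for 12 libraries and for the 10 unmarked ones, and checked on simulated data. log2 CPM used a prior count of 2. Alternatives were DESeq2 1.42.0, limma 3.58.1 voom with quality weights, other scalings and filters, and leaving out libraries. Exon lengths, overlaps and GC content came from GENCODE annotation of GRCm38, and upstream sequences from RefSeq. Genes named were, beside fixed roles, the 5 with the smallest p per direction and fit, the 5 highest and 5 lowest per length, and the 3 most and 3 least variable. Others (Mrpl32, Mrpl1, Mrps14, Mrpl52, Mrpl2, Mrpl36, Mrpl55) were named after their values were seen. Members, lists and tests were chosen with earlier results of these data known. Libraries had 17263209 to 51556592 counts per library, which limits precision for low genes.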

Additional observations from a re-analysis of the deposited data

Results flagged for a closer look

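Groups of 5 or 6 libraries were searched for a single value far from the others by Dixon's criterion, and 51 of the 164 groups tested, over 40 named genes and sums, had one. Chance gives about 1 in 20. Nearly all were the marked libraries.

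In HKII+/- replicate 11 the high values, in CPM, were 97.87 for Mrpl39, 202.1 for Mrps26, 50.78 for Mrps5, 256.9 for Mrpl28, 687.2 for Mrpl12, 75.11 for Mrpl11, 79.2 for Mrps12, 102.2 for Mrpl38, 27.73 for Mrpl40, 62.57 for Mrps30 and 56.95 for Mrps28. The low values in that library were 16.16 CPM for Mrps2, 12.8 for Mrpl19, 29.18 for Mrpl50, 14.76 for Mrps17, 17.95 for Mrps31, 2.297 for Mrpl42, 47.68 for Mrpl30, 56.36 for Mrps23, 8.422 for Mrpl47, 23.1 for Mrpl45, 6.465 for Mrps18b, 2.424 for Mrps18c and 0.6805 for Mrps36.

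In HKII+/+ replicate 13 the high values, in CPM, were 37.77 for Mrpl57, 152.7 for Mrpl51, 52.72 for Mrpl21, 57.45 for Mrpl46, 80.46 for Mrpl39, 171 for Mrps26, 52.85 for Mrps5, 65.38 for Mrpl53, 54.82 for Mrpl17, 289.9 for Mrpl28, 655.9 for Mrpl12, 84.53 for Mrpl11, 80.4 for Mrps12, 109.1 for Mrpl38, 34.82 for Mrpl40, 57.58 for Mrps18a, 80.99 for Mrps30 and 72.59 for Mrps28. Its summed CPM over the 77 genes, 5207, was also high. The low values were 17.57 CPM for Mrps2, 42.17 for Mrpl50, 12 for Mrpl42, 8.918 for Mrps18b, 6.099 for Mrps18c and 0.459 for Mrps36.

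Only 2 values among the unmarked libraries stood apart. Mrpl19 had 26.82 CPM in HKII+/- replicate 20, against 29.85 to 30.52 CPM in the other unmarked HKII+/- libraries. Mrpl14 had 56.05 CPM in HKII+/+ replicate 18, against 45.69 to 48.16 CPM in the other unmarked HKII+/+ libraries.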

How the results depend on the processing

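No setting called any of the 77 genes, under other scalings (RLE, upper quartile, library totals), filters, DESeq2, limma voom or leaving out any 1 library. Among all tested genes few were called in any setting, at most 3 of 14139, with DESeq2 over 10 libraries. Of the 77 genes, 1 (Mrpl19) reached an unadjusted p below 0.05 with limma voom and quality weights over 12 libraries, where 4.76% of tested genes passed. With the atrial covariate over 10 libraries 6 did, where 4.85% of tested genes passed. The median log2 fold change ranged between -0.107 and -0.016 when single libraries were left out of the 12-library fit, and between -0.040 and 0.008 for the 10-library fit. Without both marked libraries Mrps26 turned to -0.03 (-0.0252), Dap3 to 0.02 (0.0199) and Tufm to 0.02 (0.0221). Without a filter Polrmt turned to -0.00695, and with at least 1 CPM in 6 libraries Dap3 to 0.00255. With limma voom Mrps26, Dap3 and Polrmt turned to -0.048, 0.0162 and -0.00496. With the atrial covariate Mrpl17, Mrpl28 and Mrpl42 turned to -0.00551, -0.0236 and -0.0234. Leaving out single libraries from the 12, log2 fold changes that changed sign ranged between -0.242 and 0.0168 for Mrpl21, -0.238 and 0.0215 for Mrpl46, -0.0913 and 0.22 for Mrpl39, -0.061 and 0.138 for Mrps6, -0.812 and 0.922 for Mrps26, -0.0642 and 0.169 for Mrps2, -0.198 and 0.0778 for Aurkaip1, -0.0939 and 0.283 for Yy1, -0.0926 and 0.112 for Dap3, -0.16 and 0.0775 for Tufm, -0.275 and 0.363 for Polrmt, -0.201 and 0.0495 for Tfam, and -0.151 and 0.107 for Gabpa. From the 10 they ranged between -0.00654 and 0.0613 for Mrpl42, -0.0663 and 0.0211 for Mrps36, and -0.0619 and 0.01 for Mrps26. The cause was not tested. Hk2 kept its direction throughout, but its adjusted p over the 10 libraries was between 0.0522 and 0.0951 in the 7 refits without 1 library where the call was lost. Divided by principal-transcript length, 2 of the 11 levels compared moved by more than their SD, Mrpl23 to 5.17 and Mrps17 to 6.31 CPM per kilobase, and 9 did not. No paired analysis was possible because no replicate number occurs in both genotypes. Low genes such as Mrpl23 are limited by depth.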
